A study of Mus musculus with 26 samples.

Results

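Ribosome footprints of cells under oxidative stress were set directly against those of cells under osmotic stress, each 2 h into the stress. The comparison rests on 4 of the 26 libraries of the series: 2 of NIH3T3 cells given hydrogen peroxide (H2O2, labelled oxidative stress) for 2 h, and 2 of the same line given potassium chloride (KCl, labelled osmotic stress) for 2 h. NIH3T3 is an immortal mouse embryonic fibroblast line, used here as 1 line with no change of genotype between the groups. All libraries of the 2 footprint groups were taken, and all genes of the deposited table were considered. Doses were not given in the sources used here. Libraries of the same stresses at 7 h (2 of each) entered the fit only to share its estimate of the spread, and were used in 1 further test. The untreated control (2 libraries), which both stresses share, was left out of every test, and its values are printed as a description. RNA libraries of the same groups gave the RNA difference of each gene. The labels name 2 replicates in each group without saying whether they were separate cultures, so the p-values measure the spread between these libraries, which may be technical.

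Ribosome profiling sequences the short mRNA fragments that ribosomes protect, so the footprints of a gene depend both on how much of its mRNA is present and on how many ribosomes each copy carries. Stress kinases phosphorylate the initiation factor eIF2alpha, which lowers the rate at which most mRNAs start translation. A few mRNAs with short upstream reading frames (uORFs), Atf4 among them, escape this block, and the ATF4 protein then turns on genes of amino acid supply and redox balance. This programme is called the integrated stress response. Oxidants also release the transcription factor NRF2, which drives antioxidant genes, while a rise in salt outside the cell activates NFAT5, which drives genes that import or make small osmolytes.

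Promoter stretches of 3 genes that had more footprints in H2O2 are shown because they hold, in capitals, an exact match to the C/EBP-ATF response element, the DNA element bound by ATF4 with C/EBP partners. They were read from a RefSeq promoter table of build GRCm38.p6 and are written 5′ to 3′ on the gene's own strand, each lying wholly upstream of the start.
Atf3: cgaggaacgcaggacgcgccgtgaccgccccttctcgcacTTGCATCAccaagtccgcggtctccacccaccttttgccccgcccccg
Chac1: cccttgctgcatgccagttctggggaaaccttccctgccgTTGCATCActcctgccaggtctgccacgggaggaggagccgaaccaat
Vldlr: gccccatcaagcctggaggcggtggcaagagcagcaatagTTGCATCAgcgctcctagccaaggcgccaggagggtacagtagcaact
The stretches are chr1:191183396-191183483 on the minus strand for Atf3, chr2:119351009-119351096 on the plus strand for Chac1 and chr19:27216780-27216867 on the plus strand for Vldlr. The element began 110 bases upstream of the start in Atf3, 193 in Chac1 and 200 in Vldlr. The search used TGATGNAA and its reverse complement TTNCATCA in the 250 bases before the start. Of the 10 called genes of the integrated stress response list, 9 had a promoter on hand and 3 of these held the element. It was found in 5 of 18 tested members of the list with a promoter, and in 3.45% of 32851 promoters. The antioxidant response element core TGACNNNGC (both strands), linked to NRF2, was found in none of 4 called NRF2 targets with a promoter. It was found in 5 of 16 tested NRF2 targets and in 10.2% of all promoters. The tonicity element core TGGAAA (both strands), linked to NFAT5, was found in none of 3 called osmotic genes with a promoter. It was found in 2 of 6 tested osmotic genes and in 18.6% of all promoters. A gene counted if any of its promoters matched, so the gene counts and the promoter shares are not on the same measure. None of the 3 matches shown overlapped a match of the other motifs, and a match or its lack describes only the letters in this window.

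The H2O2 libraries were of unequal depth, with 1460751 expected counts in replicate 1 and 5168537 in replicate 2, while the KCl libraries held 3061451 and 3051649. The other footprint libraries used held 2884344 to 3925402, and the RNA libraries 24441877 to 45244430. Replicates correlated across genes, which are not independent, with r of 0.958 in H2O2 and 0.972 in KCl at 2 h. Fibroblast markers were abundant in all 4 libraries, with a summed level of 22884 to 25865 CPM over 10 of 10 genes. CPM in the marker sums of this paragraph are counts scaled to a library's total. Everywhere else CPM are the counts of a gene scaled to a library's effective size. Epithelial markers summed to 6.16 to 17.8 CPM in H2O2 and 23.3 to 27.4 in KCl, with 1 of 6 at 0 throughout. Endothelial markers summed to 8.90 to 13.01 and 7.19 to 17.7 CPM, immune markers to 9.58 to 11.6 and 6.23 to 6.86 CPM with 4 of 5 at 0, and muscle markers to 0.685 to 2.32 and 0.983 to 1.31 CPM with 2 of 4 at 0.

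After 2 h, the genes with more footprints in H2O2 than in KCl included 10 of 19 genes of the integrated stress response, the metallothioneins Mt1 and Mt2, and 9 of 25 immediate early genes (4 without KCl replicate 2), against 2.56% of all genes tested. Those with fewer included 4 of 8 genes of the osmotic response, 4 of 15 cytosolic chaperones and the splicing kinase Clk4, against 2.4% of all. Fewer osmotic genes were called without H2O2 replicate 1 or KCl replicate 1. All these counts are of single genes that passed the test, and no list was tested as a whole. Of 10454 genes tested, 519 were called (4.96%), where called means an adjusted p under 0.05 in edgeR's quasi-likelihood test, adjusted over all genes by the Benjamini-Hochberg method. In H2O2, 268 of them were higher (2.56%) and 251 lower (2.4%), and 379 differed by at least 1 on the log2 scale (3.63%), 240 higher (2.3%) and 139 lower (1.33%). With limma on the deposited TPM values plus 1 the split was 156 higher and 67 lower. The groups did not overlap in CPM in 4913 genes (47%), a share far above that called. Both the number and the identity of the called genes depended on single libraries of either stress. The number fell most without a KCl library. Without either H2O2 library many of the main calls were lost while other genes gained a call. With the 4 libraries thinned to the depth of the shallowest the number called was 289, and with the 2 h groups fitted alone 156. Without the control in the test, its level was free to fall anywhere: the control mean lay between the H2O2 and KCl means in 142 of the 268 higher genes, above both in 98 and below both in 28. For the 251 lower genes it lay between in 205, above both in 12 and below both in 34.

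**Figure D1:**
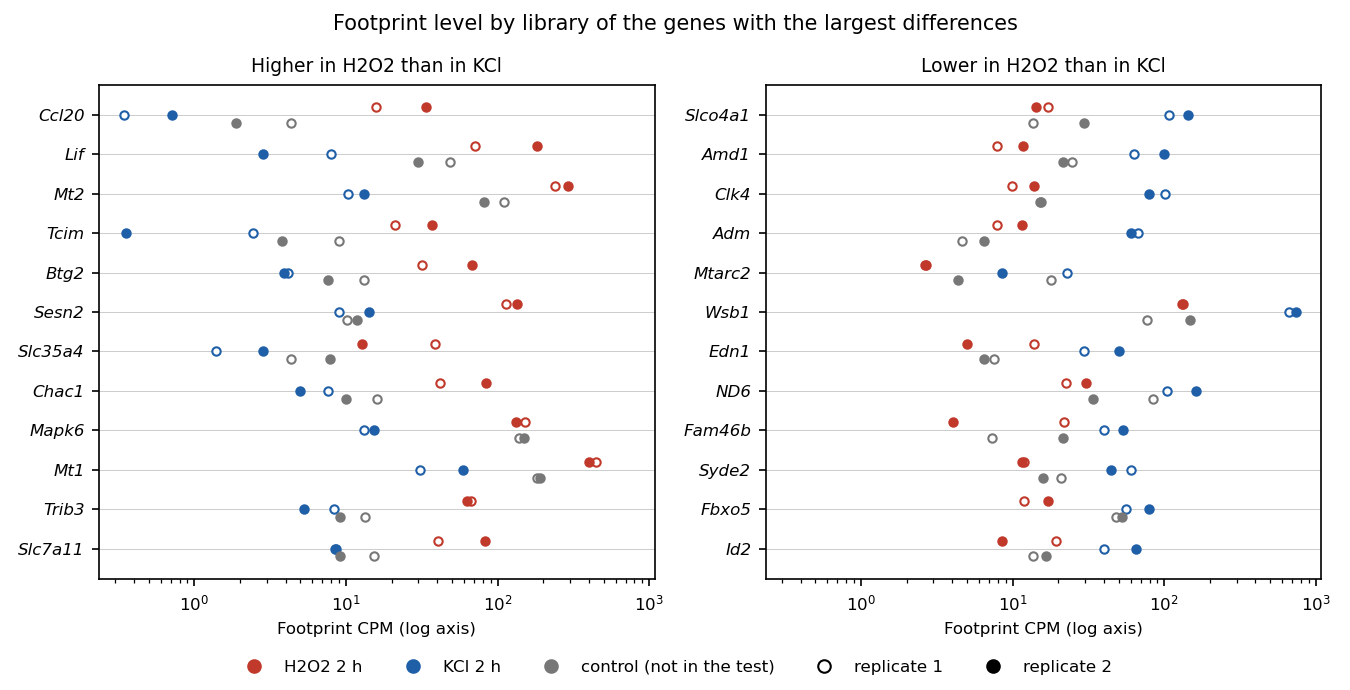
Footprint level in CPM (log axis) of the 12 called genes with the largest difference in each direction. Red points are H2O2, blue points KCl and grey points the control, with open symbols for replicate 1 and filled symbols for replicate 2. In each gene both red points lie on one side of both blue points, which the choice of genes required. The grey points lie near the blue ones for Sesn2 and near the red ones for Mapk6, Clk4 and Adm.

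Genes of the integrated stress response formed the list with the most called members. Of its 19 genes 10 were higher in H2O2 and 0 lower, with 16 above 0 and a median log2 difference of 1.25 against 0.00 over all genes tested. Sesn2, a stress-induced brake on the growth kinase mTORC1, had 113 and 135 CPM in H2O2 and 8.99 and 14.2 in KCl. Control libraries had 10.2 and 11.9, so its level in KCl was near that of the control and its level in H2O2 was 10.8-fold that in KCl (log2 difference 3.43 ± 0.29 SE, adjusted p = 5.98e-05). Chac1, an enzyme that degrades glutathione, had 41.7 and 83.6 CPM in H2O2, 7.61 and 4.95 in KCl and 16.02 and 10.02 in the control (log2 difference 3.36 ± 0.42 SE, adjusted p = 0.000843). Trib3, a pseudokinase induced by ATF4 and CHOP, had 66.9 and 62.6 CPM in H2O2 and 8.30 and 5.31 in KCl (log2 difference 3.24 ± 0.31 SE, adjusted p = 0.000166). For these 3 genes the H2O2 libraries were high and the KCl libraries lay at or under the control. Atf3, an early partner of ATF4, differed in another way: it had 85.4 and 151.9 CPM in H2O2 and 41.2 and 26.5 in KCl, both above the 12.9 and 7.58 of the control (log2 difference 1.84 ± 0.33 SE, adjusted p = 0.00819). Vldlr, a lipoprotein receptor under ATF4, had 14.6 and 31.3 CPM in H2O2 and 4.15 and 4.95 in KCl (log2 difference 2.44 ± 0.41 SE, adjusted p = 0.00574). Asns, Psat1 and Phgdh, enzymes of amino acid synthesis, had log2 differences of 0.25, -0.02 and -0.48 and were not called. Without H2O2 replicate 2, the log2 difference of Chac1 was 2.71, that of Vldlr lost its call at adjusted p = 0.0700, and Atf3 also lost its call, as it did without KCl replicate 2 (adjusted p up to 0.0684). The list had 7 to 9 called members in the 4 fits that each left out 1 library.

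The mRNAs known to keep their translation when eIF2alpha is phosphorylated were all on the same side. All 8 had log2 differences above 0, 5 were called higher, and the median was 1.40. Without KCl replicate 1 the number called was 3. This list shares Atf4, Atf5, Ddit3 and Ppp1r15a with the one before. Atf4 itself had 265 and 231 CPM in H2O2, 89.9 and 83.1 in KCl and 42.7 and 48.2 in the control. Its libraries thus stood in the order control, KCl, H2O2 without overlap, with a log2 difference of 1.52 ± 0.23 SE between the stresses (adjusted p = 0.00274). Ifrd1, a transcriptional co-regulator, had 183 and 269 CPM in H2O2 and 46.3 and 45.6 in KCl, with the control between at 126 and 112 (log2 difference 2.31 ± 0.25 SE, adjusted p = 0.000314). Ppp1r15b, which recruits the phosphatase that resets eIF2alpha, had 80.8 and 110 CPM in H2O2 against 40.5 and 39.3 in KCl, also with the control between at 59.5 and 72.8 (log2 difference 1.28 ± 0.22 SE, adjusted p = 0.00583). Slc35a4, whose mRNA is known for a translated uORF, had 38.4 and 12.7 CPM in H2O2 and 1.38 and 2.83 in KCl (log2 difference 3.40 ± 0.63 SE, adjusted p = 0.00993). Its H2O2 replicates lay far apart, and the estimate moved to 2.57 without H2O2 replicate 1 and 4.16 without H2O2 replicate 2. Without KCl replicate 1 the call of Slc35a4 was lost (log2 2.97, adjusted p = 0.0616), and without KCl replicate 2 that of Ppp1r15b (adjusted p = 0.0504). Atf5 was called with a log2 difference of 1.86 (adjusted p = 0.0397) and lost its call without H2O2 replicate 1 or KCl replicate 1 (adjusted p up to 0.183). Ddit3, Ppp1r15a and Ibtk were not called, at log2 differences of 1.25, 1.14 and 0.67.

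Among amino acid carriers most called members were higher in H2O2, and the exception is also an osmotic gene. Of 12 members tested, 4 were called higher and 1 lower, with a median of 0.70. Slc7a11, the cystine importer of glutathione supply, had 40.4 and 83.0 CPM in H2O2 and 8.65 and 8.49 in KCl, with 15.3 and 9.21 in the control (log2 difference 2.90 ± 0.35 SE, adjusted p = 0.000733). Slc3a2, the heavy chain it shares with other carriers, had 933 and 1179 CPM in H2O2 and 402 and 416 in KCl (log2 difference 1.37 ± 0.20 SE, adjusted p = 0.0018). Slc7a5, a leucine carrier, had 389 and 440 CPM in H2O2 and 173 and 199 in KCl, the latter under the 320 and 352 of the control (log2 difference 1.16 ± 0.19 SE, adjusted p = 0.00426). Slc1a4, the remaining called carrier, had a log2 difference of 1.03. Slc38a2, a sodium-coupled carrier of neutral amino acids induced by hypertonicity, went the other way, as given with the osmotic genes. Leaving out H2O2 replicate 2 lowered Slc7a11 to 2.22, and leaving out KCl replicate 1 took the call from Slc7a5 (adjusted p = 0.0587) and Slc1a4 (adjusted p = 0.0998, lost also without H2O2 replicate 2 or KCl replicate 2), which left 2 higher. The aminoacyl-tRNA synthetases, which charge tRNAs and include known ATF4 targets, had 0 of 20 called and a median of -0.19. Their best covered members, Aars and Vars, had log2 differences of 0.12 (adjusted p = 0.784) and -0.34 (adjusted p = 0.429).

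Antioxidant genes were called in both directions. Of 20 NRF2 targets 3 were called higher and 2 lower in H2O2, 14 lay below 0, and the median was -0.13. Hmox1, heme oxygenase, which breaks down heme and releases iron, had 959 and 1369 CPM in H2O2, 269 and 241 in KCl and 204 and 247 in the control. Both H2O2 libraries stood above all others, and the log2 difference was 2.19 ± 0.29 SE (adjusted p = 0.0011). Srxn1, which repairs oxidised peroxiredoxins, had 27.8 and 16.3 CPM in H2O2 and 5.88 and 7.78 in KCl (log2 difference 1.59 ± 0.38 SE, adjusted p = 0.0312), and Slc7a11 was the third. The 2 lower members were both ferritin chains, the iron store of the cell. Fth1 had 27.1 and 73.8 CPM in H2O2, 180 and 156 in KCl and 116 and 125 in the control (log2 difference -1.65 ± 0.32 SE, adjusted p = 0.0117). Ftl1 had 111 and 83.9 CPM in H2O2 and 162 and 270 in KCl (log2 difference -1.17 ± 0.30 SE, adjusted p = 0.0414). Ferritin genes have many processed copies in the genome, among which the authors' counting could split reads. Nqo1, Gclm, Txnrd1 and Gsr, well known NRF2 targets, had log2 differences of -0.28, -0.21, 0.09 and 0.08 and were not called. The call of Srxn1 held in 1 of the 4 fits that each left out 1 library (adjusted p up to 0.148, without KCl replicate 1), as did that of Ftl1 (adjusted p up to 0.272, without KCl replicate 2). Fth1 kept its call in all 4, at -2.64 without H2O2 replicate 2.

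Metallothioneins, small cysteine-rich proteins that bind zinc and copper, gave some of the widest gaps. Mt2 had 241 and 293 CPM in H2O2 and 10.4 and 13.1 in KCl, a 22.8-fold difference (log2 4.51 ± 0.33 SE, adjusted p = 3.4e-05). Mt1 had 445 and 402 CPM in H2O2 and 30.8 and 58.7 in KCl (log2 3.24 ± 0.35 SE, adjusted p = 0.000334). The control stood between the stresses for both, at 110 and 81.0 CPM for Mt2 and 181 and 191 for Mt1, so the KCl libraries were the low ones and the H2O2 libraries the high ones. Both kept their call in every fit that left out a library.

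Of 17 p53 targets 5 were called higher in H2O2 and 1 lower, with a median of 0.72. Btg2, an antiproliferative factor, had 31.8 and 68.2 CPM in H2O2 and 4.15 and 3.89 in KCl (log2 difference 3.69 ± 0.40 SE, adjusted p = 0.000314). Mdm2, the ubiquitin ligase that restrains p53, had 118 and 231 CPM in H2O2 and 53.9 and 44.6 in KCl, close to the control at 48.3 and 47.1 (log2 difference 1.84 ± 0.32 SE, adjusted p = 0.00598). Cdkn1a, the cell cycle inhibitor p21, had 71.5 and 86.1 CPM in H2O2 and 29.0 and 42.8 in KCl (log2 difference 1.15 ± 0.26 SE, adjusted p = 0.025). Ei24, a membrane protein of the endoplasmic reticulum, had 14.6 and 20.0 CPM in H2O2 and 5.88 and 6.72 in KCl, below its control of 22.8 and 24.4 (log2 difference 1.51 ± 0.32 SE, adjusted p = 0.0194). Gdf15, a secreted stress signal, had 39 counts over both H2O2 libraries and 1 over both KCl libraries, a ratio of depth-scaled counts of 36.0 with a 95% exact interval of 6.09 to 1456 that covers counting error only (adjusted p = 0.0112). With libraries left out the number called higher fell to 2 without H2O2 replicate 2 and 3 without either KCl replicate. Sesn1 was the lower one, at a log2 difference of -1.46 (adjusted p = 0.0449). Left-out libraries changed several of these: without H2O2 replicate 2, Btg2 was at 2.96 and Mdm2 at 1.25, and the calls of Cdkn1a (adjusted p = 0.0913), Ei24 (0.121), Gdf15 (0.0706) and Sesn1 (0.267) were lost. Without KCl replicate 1 the calls of Cdkn1a (log2 0.89), Ei24 (1.41), Gdf15 (3.87) and Sesn1 were also lost. Without KCl replicate 2 those of Mdm2 (log2 1.71), Ei24 (1.60) and Sesn1 were lost.

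Immediate early genes, the transcription factors and feedback regulators that signalling kinases switch on within minutes, were higher in H2O2 in 9 of 25 tested members and lower in 0, with 7 below 0 and a median of 0.81. Egr1, a zinc finger factor, had 1433 and 1139 CPM in H2O2 and 200 and 169 in KCl, the latter near the 160 and 98.3 of the control (log2 difference 2.80 ± 0.30 SE, adjusted p = 0.000314). Fosb, a subunit of AP-1, had 92.0 and 83.6 CPM in H2O2, 21.4 and 19.5 in KCl and 4.85 and 7.04 in the control, so both stresses stood above the control and H2O2 above KCl (log2 difference 2.09 ± 0.25 SE, adjusted p = 0.000733). Zfp36, which destabilises cytokine mRNAs, had the same order, with 228 and 144 CPM in H2O2, 42.2 and 42.8 in KCl and 14.8 and 19.2 in the control (log2 difference 2.12 ± 0.27 SE, adjusted p = 0.000987). Dusp2, a phosphatase of MAP kinases, had 96 counts in H2O2 and 3 in KCl, a depth-scaled ratio of 29.5 with a 95% exact interval of 9.80 to 146 for counting error only (adjusted p = 0.00195). Egr1, Fosb, Zfp36 and Dusp2 kept their calls in all 4 fits that left out a library. The other called members, Dusp4, Dusp5, Ier2, Junb and Jund, were at 1.21, 1.17, 1.27, 1.29 and 1.05. Without KCl replicate 2 they all lost their calls (adjusted p from 0.0527 to 0.213), leaving 4 members called. Fos, Jun, Myc and Dusp1 were not called, at log2 differences of 0.37, 0.81, 0.88 and -0.91. A lower call in this list appeared with either H2O2 replicate left out.

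Secreted signals and regulators of NF-kB had 5 of 15 tested members higher in H2O2 and 0 lower, with a median of 0.89. Without H2O2 replicate 1, 8 were higher and 1 lower. Lif, a cytokine of the interleukin-6 family, had 71.5 and 181 CPM in H2O2, 7.95 and 2.83 in KCl and 48.3 and 29.8 in the control (log2 difference 4.58 ± 0.48 SE, adjusted p = 0.000292). KCl libraries were the low ones there, below the control. Ccl20, a chemokine, had 200 counts in H2O2 and 3 in KCl, a depth-scaled ratio of 61.5 with a 95% exact interval of 20.7 to 301 for counting error only (adjusted p = 0.000393). Vegfa, the angiogenic growth factor, had 141 and 205 CPM in H2O2 and 39.4 and 29.4 in KCl, with the control at 56.1 and 39.8 (log2 difference 2.34 ± 0.34 SE, adjusted p = 0.00195). Nfkbia, the inhibitor that holds NF-kB in the cytoplasm, had 441 and 231 CPM in H2O2 and 95.4 and 131 in KCl (log2 difference 1.55 ± 0.29 SE, adjusted p = 0.0105). Areg, a ligand of the EGF receptor, was the remaining called member at 1.88 (adjusted p = 0.0336). Lif moved to 3.70 without H2O2 replicate 2 and 5.50 without KCl replicate 1, and Ccl20 to 4.80 without H2O2 replicate 2. Nfkbia lost its call without KCl replicate 1 (log2 1.34), and Areg without H2O2 replicate 2 or KCl replicate 2. Tcim, outside the lists, had 21.2 and 36.9 CPM in H2O2 and 2.42 and 0.354 in KCl (log2 difference 4.41 ± 0.57 SE, adjusted p = 0.00102). Its estimate moved to 6.28 without KCl replicate 1 and 3.63 without KCl replicate 2.

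Of 8 genes of the osmotic response, 4 were lower in H2O2 and 0 higher, 3 lay above 0, and the median was -0.46. The number called was 2 without H2O2 replicate 1 or KCl replicate 1. Akr1b3, aldose reductase, which makes the osmolyte sorbitol, had 150 and 217 CPM in H2O2, 567 and 505 in KCl and 256 and 144 in the control. The H2O2 values lay within reach of the control and the KCl values above both (log2 difference -1.53 ± 0.21 SE, adjusted p = 0.00159). Slc38a2 had 1278 and 1384 CPM in H2O2, 3763 and 3255 in KCl and 570 and 638 in the control, so both stresses exceeded the control and KCl the more (log2 difference -1.40 ± 0.21 SE, adjusted p = 0.00252). Nfat5, the tonicity-responsive factor, had 100 and 140 CPM in H2O2 and 298 and 202 in KCl (log2 difference -1.05 ± 0.26 SE, adjusted p = 0.0369). Hspa4l, a chaperone induced by hypertonicity, had 91.4 and 90.5 CPM in H2O2 and 163 and 143 in KCl (log2 difference -0.75 ± 0.19 SE, adjusted p = 0.0382). Slc5a3, Slc6a6 and Slc6a12, the carriers of inositol, taurine and betaine, had log2 differences of 0.14, -0.18 and 1.11 and were not called. Akr1b3 and Slc38a2 kept their calls without any library. Nfat5 lost it without H2O2 replicate 1 (adjusted p = 0.14) or KCl replicate 1 (0.206), and Hspa4l without any of the 4 libraries (adjusted p from 0.0831 to 0.186). The ion pumps, carriers and kinases of cell volume control had 0 of 11 called (1 lower without H2O2 replicate 2) and a median of -0.17, with Atp1b3 at -0.52 (adjusted p = 0.326).

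Cytosolic chaperones driven by HSF1, the heat shock factor, were lower in H2O2 in 4 of 15 members and higher in 0, with 13 below 0 and a median of -0.48. Hspa8, the constitutive HSP70, had 3263 and 2804 CPM in H2O2, 7554 and 8718 in KCl and 4571 and 4911 in the control. The control separated the stresses, with H2O2 below it and KCl above (log2 difference -1.42 ± 0.21 SE, adjusted p = 0.00257). Hspa1b, an inducible HSP70, had 342 and 190 CPM in H2O2, 918 and 931 in KCl and 100 and 144 in the control, so here both stresses stood above the control (log2 difference -1.81 ± 0.25 SE, adjusted p = 0.00153). Hspa1a, its near-identical neighbour, with which reads can be shared, had 41.0 and 88.4 CPM in H2O2 and 201 and 244 in KCl (log2 difference -1.72 ± 0.30 SE, adjusted p = 0.00723, and -2.45 without H2O2 replicate 2). Dnaja1, an HSP40 cochaperone, was at -0.98 (adjusted p = 0.0313) and lost its call without H2O2 replicate 1 (0.125), KCl replicate 1 (0.145) or KCl replicate 2 (0.0710). Chaperones of the endoplasmic reticulum had 0 of 20 called (1 higher without H2O2 replicate 1) and a median of 0.09, with Hspa5 (BiP) at 0.35 (adjusted p = 0.459) and Hsp90b1 at -0.17 (adjusted p = 0.795).

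Messenger RNAs with a terminal oligopyrimidine start (TOP mRNAs), whose translation follows the kinase mTORC1, had few called members. Of 78 ribosomal proteins tested 6 were called lower and 0 higher, 68 lay below 0, and the median was -0.31. The number called was 2 without H2O2 replicate 1 and 1 without KCl replicate 2. Rpsa, a protein of the small subunit, had 428 and 470 CPM in H2O2, 957 and 1262 in KCl and 1215 and 1728 in the control (log2 difference -1.30 ± 0.20 SE, adjusted p = 0.00274). Rplp0 and Rplp1, proteins of the ribosomal stalk, were at -0.98 (adjusted p = 0.0224) and -1.26 (adjusted p = 0.0162), and Rps12 at -0.97 (adjusted p = 0.0193). Ribosomal protein genes have many processed copies, so their counts carry that uncertainty. Of 17 other TOP mRNAs all lay below 0, with a median of -0.37, and 1 was called (3 without H2O2 replicate 2). That one was Pabpc1, the poly(A)-binding protein, with 62.2 and 96.2 CPM in H2O2, 310 and 259 in KCl and 767 and 760 in the control. Its libraries fell in the order control, KCl, H2O2 with no overlap (log2 difference -1.81 ± 0.24 SE, adjusted p = 0.00112). Rpsa and Pabpc1 kept their calls in all 4 fits that left out a library. Without KCl replicate 2, Rplp0 (adjusted p = 0.162), Rplp1 (0.115) and Rps12 (0.144) lost theirs, as Rplp0 (0.0936) and Rplp1 (0.0594) did without H2O2 replicate 1 and Rps12 (0.0573) without H2O2 replicate 2. The summed level of ribosomal protein footprints was 57391 and 55732 CPM in H2O2, and 61771 and 79693 CPM in KCl, whose replicates differed more than the groups did.

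The mRNAs of the mitochondrial genome, translated inside the organelle, were lower in H2O2 in 3 of 13 cases, with 12 below 0 and a median of -0.94. The number called was 1 without H2O2 replicate 1 or KCl replicate 2, and 9 without H2O2 replicate 2. ND6, a subunit of complex I and the one read from the opposite strand, had 22.5 and 30.3 CPM in H2O2, 104 and 163 in KCl and 84.5 and 33.8 in the control (log2 difference -2.29 ± 0.27 SE, adjusted p = 0.000632). COX1 and COX2, core subunits of complex IV, were at -1.48 (adjusted p = 0.0266) and -1.15 (adjusted p = 0.033). The replicates of H2O2 disagreed here: the 13 mRNAs summed to 757 and 1643 CPM in H2O2, against 2316 and 2741 in KCl and 2063 and 1510 in the control. ND6 kept its call in all 4 fits that left out a library. COX1 lost it without H2O2 replicate 1 (adjusted p = 0.103) or KCl replicate 2 (0.125) and was at -2.13 without H2O2 replicate 2, and COX2 lost it without H2O2 replicate 1 (0.123), KCl replicate 1 (0.110) or KCl replicate 2 (0.0901). Subunits of the respiratory chain encoded in the nucleus had 0 of 74 called (2 higher without H2O2 replicate 2 and 1 without KCl replicate 2) and a median of 0.06, with Atp5b at -0.37 (adjusted p = 0.311) and Atp5a1 at -0.22 (adjusted p = 0.552).

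Genes of DNA replication were lower in H2O2 in 5 of 18 members and higher in 0, with a median of -0.34. The number lower was 2 without H2O2 replicate 1, 3 without KCl replicate 1 and 1 without KCl replicate 2. Cdc6, which loads the replicative helicase, had 81.4 and 75.9 CPM in H2O2 and 163 and 175 in KCl, with the control at 68.2 and 81.8 (log2 difference -1.11 ± 0.19 SE, adjusted p = 0.00604). Ccne2, a cyclin of S phase entry, had 15.2 and 28.6 CPM in H2O2 and 55.0 and 69.3 in KCl (log2 difference -1.40 ± 0.29 SE, adjusted p = 0.0178). The ribonucleotide reductase subunit Rrm2 was at -1.08 (adjusted p = 0.0196), its partner Rrm1 at -0.74 (adjusted p = 0.0390) and the polymerase Pola1 at -0.92 (adjusted p = 0.0244). Cdc6 kept its call without any library. Ccne2 lost it without H2O2 replicate 1 (adjusted p = 0.0522) or KCl replicate 2 (0.0925) and was at -2.04 without H2O2 replicate 2. Rrm2 lost it without H2O2 replicate 2 (0.0573) or KCl replicate 2 (0.152), and Rrm1 and Pola1 without H2O2 replicate 1, KCl replicate 1 or KCl replicate 2 (adjusted p up to 0.165 and 0.107). Of 17 mitotic genes 16 lay below 0, with a median of -0.48, and 1 was called (3 without H2O2 replicate 2): Top2a, a topoisomerase, at -0.92 (adjusted p = 0.0346, and 0.140, 0.147 and 0.0866 without H2O2 replicate 1, KCl replicate 1 and KCl replicate 2).

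Lists of fibroblast structure and lipid synthesis held few called genes. Of 26 genes of sterol and fatty acid synthesis 3 were lower in H2O2 and 0 higher (median -0.20): Hmgcs1 at -1.10 (adjusted p = 0.0084), Acaca at -0.88 (adjusted p = 0.0223) and Fasn at -1.04 (adjusted p = 0.0485). Without KCl replicate 2 all 3 lost their calls (adjusted p = 0.0540, 0.161 and 0.228), and Acaca (0.0666) and Fasn (0.162) also without H2O2 replicate 2, and Fasn (0.0659) without KCl replicate 1. Extracellular matrix had 0 of 23 called (1 higher without H2O2 replicate 1) and a median of 0.09, with Thbs1 (thrombospondin) at -0.55 (adjusted p = 0.162) and Col1a1 (collagen) at 0.04 (adjusted p = 0.958). Tubulins had 0 of 9 called and a median of -0.20, with Tubb5 at -0.26 (adjusted p = 0.538) and Tuba1b at -0.12 (adjusted p = 0.86). Of 15 targets of SRF and YAP, regulators of the actin cytoskeleton, 1 was higher and 1 lower, with a median of -0.12. These were Srf itself at 1.17 (adjusted p = 0.0485) and Cnn1, an actin-binding calponin, at -0.87 (adjusted p = 0.0412). Srf lost its call without any of the 4 libraries (adjusted p up to 0.291), and Cnn1 without H2O2 replicate 1 (0.130), KCl replicate 1 (0.146) or KCl replicate 2 (0.133).

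Among splicing factors and their kinases, 2 kinases stood out. Of 15 SR proteins and CLK kinases 2 were lower and 0 higher, with a median of 0.12, and without KCl replicate 1, 1 was lower and 1 higher. Clk4, a kinase that phosphorylates SR proteins, had 9.93 and 13.8 CPM in H2O2, 102 and 79.6 in KCl and 15.05 and 15.43 in the control. Only the KCl libraries were high, and the log2 difference was -2.85 ± 0.26 SE (adjusted p = 0.000138). Clk1, a kinase of the same family, had 13.2 and 39.4 CPM in H2O2, 96.5 and 64.4 in KCl and 23.5 and 22.5 in the control (log2 difference -1.47 ± 0.35 SE, adjusted p = 0.0296). It lost its call without H2O2 replicate 1 (adjusted p = 0.0608) or KCl replicate 1 (0.145) and was at -2.61 without H2O2 replicate 2, whereas Clk4 kept its call throughout.

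The polyamine genes had 1 higher and 1 lower of 9, with a median of -0.27. Amd1, the decarboxylase that supplies spermidine synthesis and whose mRNA has a polyamine-sensing uORF, had 7.94 and 11.7 CPM in H2O2, 63.3 and 100.1 in KCl and 24.8 and 21.7 in the control (log2 difference -2.96 ± 0.39 SE, adjusted p = 0.00111). A near-identical mouse copy of Amd1 exists, so its reads may be shared. Azin1, the antizyme inhibitor, was at 1.13 (adjusted p = 0.0196) and lost its call without H2O2 replicate 2 (0.0669), KCl replicate 1 (0.127) or KCl replicate 2 (0.0526).

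Further genes with the largest negative differences belonged to none of these lists. Slco4a1, an organic anion carrier, had 17.2 and 14.2 CPM in H2O2 and 107 and 144 in KCl, with the control at 13.6 and 29.8 (log2 difference -3.03 ± 0.29 SE, adjusted p = 0.000139). Wsb1, a substrate receptor of a ubiquitin ligase, had 132 and 134 CPM in H2O2, 668 and 741 in KCl and 76.5 and 147 in the control (log2 difference -2.41 ± 0.19 SE, adjusted p = 4.31e-05). Adm, the vasodilator peptide adrenomedullin, had 7.94 and 11.5 CPM in H2O2, 67.4 and 60.1 in KCl and 4.61 and 6.498 in the control (log2 difference -2.62 ± 0.32 SE, adjusted p = 0.000733). In these 3 the KCl libraries stood far above the control. For Adm both H2O2 libraries also lay above both control libraries. Fbxo5, an inhibitor of the anaphase-promoting complex, differed in that H2O2 was the low side, with 11.9 and 17.1 CPM against 56.4 and 78.9 in KCl and 48.1 and 52.8 in the control (log2 difference -2.14 ± 0.29 SE, adjusted p = 0.00116). Syde2 was at -2.16 (adjusted p = 0.0011). It had 11.9 and 11.5 CPM in H2O2, 60.2 and 44.6 in KCl and 20.9 and 16.0 in the control. Its H2O2 libraries thus lay below the control and its KCl libraries above it. Edn1, the vasoconstrictor endothelin, was at -2.36 (adjusted p = 0.00847), Fam46b at -2.24 (0.0226) and Id2, an inhibitor of helix-loop-helix factors, at -2.12 (0.0103). Those 3 leaned on single libraries: without H2O2 replicate 2 they were at -1.53, -1.11 and -1.47 (adjusted p = 0.0706, 0.0746 and 0.0757), without KCl replicate 2 they also lost their calls (0.0527, 0.0839 and 0.0608), and without H2O2 replicate 1 Edn1 was at -2.99 and Fam46b at -3.52. Mtarc2 was at -2.53 (adjusted p = 0.0217), but the table holds the same gene under an older symbol, Marc2, in another row. With both rows summed it was at -0.27 (adjusted p = 0.563), so the Mtarc2 value describes how reads were divided between rows and not the gene.

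**Figure D2:**
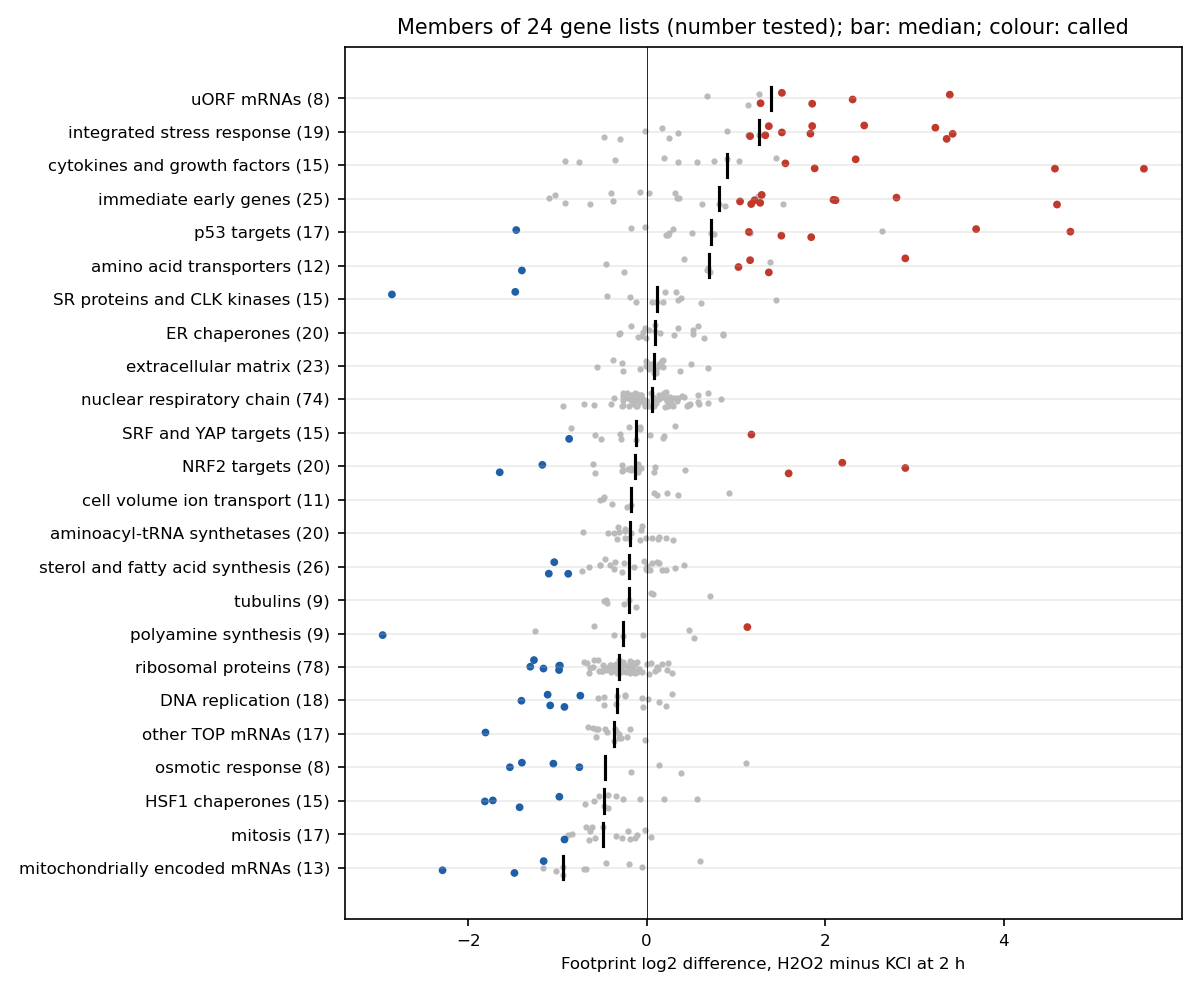
Footprint log2 difference, H2O2 minus KCl at 2 h, of the tested members of 24 gene lists, each point a gene and each bar the list's median. Red and blue points are genes called higher and lower in H2O2, and grey points are not called. The medians run from -0.94 for mitochondrially encoded mRNAs to 1.40 for uORF mRNAs.

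The RNA of the same cells asks how far footprints followed mRNA. In RNA, whose libraries are deeper, 6630 of 13172 genes were called (50.3%). Of the 268 genes with more footprints in H2O2, 205 were also called higher in RNA, 16 were called lower and 46 were not called. Of the 251 with fewer, 214 were also lower in RNA, 2 were higher and 31 were not called. Across 10383 genes the footprint and RNA log2 differences had a Pearson r of 0.485 and a Spearman coefficient of 0.448, given as a description over genes that share their libraries. The test of the footprint difference against the RNA difference, a change of translational efficiency, called 453 of 10454 genes (4.33%), 234 higher (2.24%) and 219 lower (2.09%) in H2O2. Leaving out RNA libraries gave 128 to 162 calls, and leaving out footprint libraries 682 and 990 without H2O2 replicates 1 and 2, 687 without KCl replicate 1 and 168 without KCl replicate 2. With the 2 h groups fitted alone, 23 genes were called. Among the genes called in footprints, 84 of the higher and 43 of the lower were called in the same direction by this test, and 8 and 2 in the opposite one. The test contains the footprint difference that picked these genes, so agreement in direction was favoured beforehand.

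**Figure D3:**
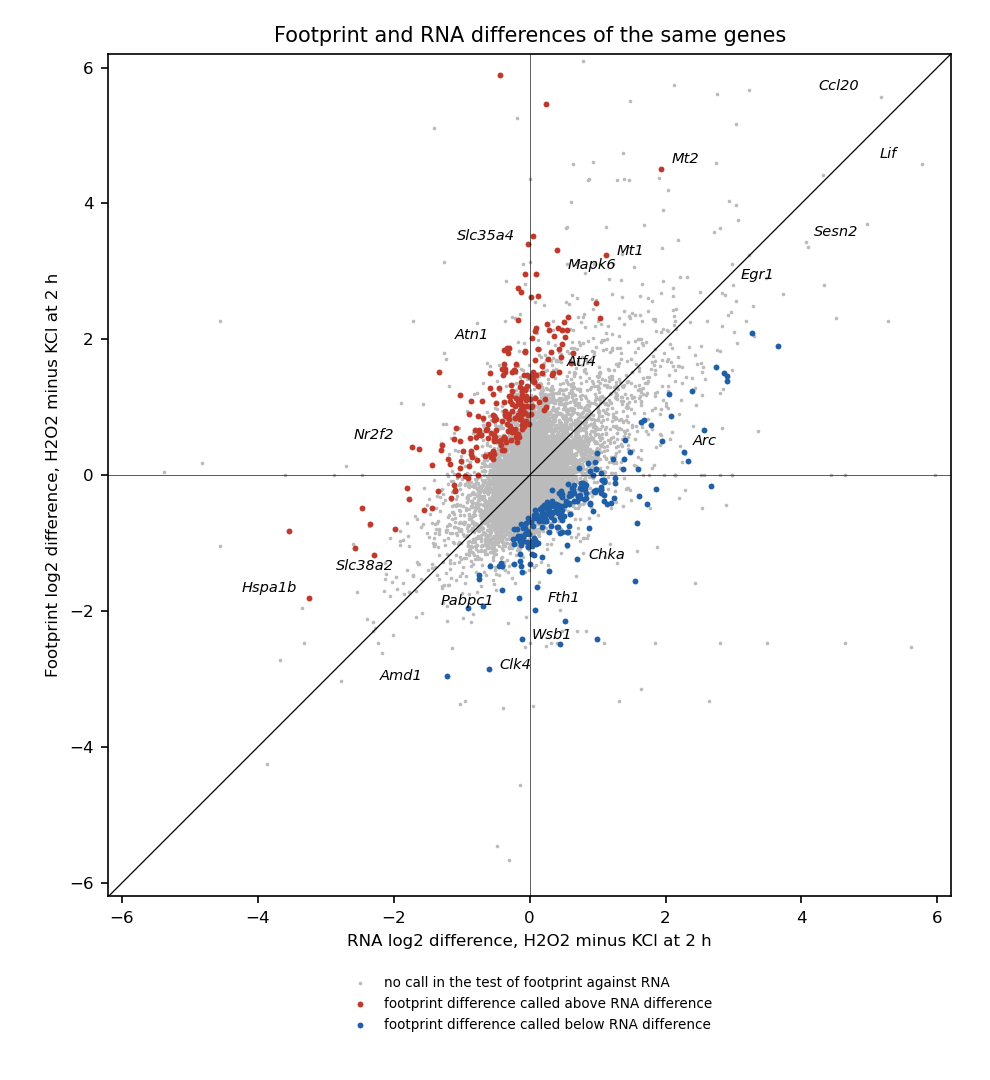
Footprint log2 difference (vertical) against RNA log2 difference (horizontal), H2O2 minus KCl at 2 h, with the line of equal differences. Red and blue points are genes called above and below that line by the translational efficiency test. Of 10383 genes 10371 are plotted and 12 lie outside the axes. Mapk6 and Slc35a4 lie near 0 on the RNA axis and above 3 on the footprint axis, while Lif and Sesn2 are high on both.

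For some genes the footprints differed with little or no difference in RNA. Mapk6, the atypical MAP kinase ERK3, had 151 and 132 footprint CPM in H2O2 and 13.1 and 15.2 in KCl, while its RNA had 484 and 501 CPM in H2O2 and 359 and 388 in KCl. The footprint log2 difference was 3.31 ± 0.36 SE and the RNA difference 0.40 ± 0.06 SE, a difference in translational efficiency of 2.88 ± 0.39 SE (adjusted p = 0.00214). Its control footprints, 138 and 149 CPM, lay between the H2O2 replicates, so KCl was the low side. Atn1, the corepressor atrophin-1, had 56.3 and 50.1 footprint CPM in H2O2, 14.9 and 13.8 in KCl and 66.5 and 85.6 in the control, while its RNA was lower in H2O2 by 0.30 ± 0.05 SE on the log2 scale (translational efficiency 2.14 ± 0.19 SE, adjusted p = 4.48e-05). Slc35a4 had RNA of 96.2 and 101 CPM in H2O2 and 98.6 and 103 in KCl, and a translational efficiency difference of 3.34 ± 0.61 SE (adjusted p = 0.00776). Atf4 had an RNA difference of 0.43 and a translational efficiency difference of 1.05 ± 0.23 SE (adjusted p = 0.0221), a call lost without KCl footprint replicate 2 (0.0787) or any of the 4 RNA libraries at 2 h (0.0507 to 0.0938). For Mt2 and Mt1 the RNA was higher too, by 1.93 and 1.12, and the footprints exceeded it by 2.55 ± 0.35 SE (adjusted p = 0.0022) and 2.09 ± 0.39 SE (adjusted p = 0.00884). Nr2f2, an orphan nuclear receptor, had lower RNA by -1.73 in H2O2 while its footprints overlapped, at 49.7 and 22.1 CPM in H2O2 and 24.2 and 25.8 in KCl (translational efficiency 2.06 ± 0.33 SE, adjusted p = 0.00463).

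In the other direction, the difference of H2O2 minus KCl was more negative in footprints than in RNA for Wsb1 and Clk4. In both genes only the KCl footprint libraries stood above both control libraries. Wsb1 RNA had 318 and 332 CPM in H2O2 and 343 and 362 in KCl, and its translational efficiency difference was -2.32 ± 0.17 SE (adjusted p = 7.63e-06). Clk4 RNA differed by -0.60 and its translational efficiency by -2.28 ± 0.23 SE (adjusted p = 0.000187). Chka, choline kinase, went opposite ways in the 2 assays: its RNA was higher in H2O2, at 279 and 281 CPM against 164 and 180, and its footprints were lower, at 123.1 and 114.5 CPM against 281 and 278 (translational efficiency -1.98 ± 0.28 SE, adjusted p = 0.00235). The footprint call of Chka by itself was lost without H2O2 replicate 2 (adjusted p = 0.0609), KCl replicate 1 (0.0624) or KCl replicate 2 (0.0629). Arc, an immediate early cytoskeletal protein, and Tma16, a factor of ribosome assembly, had RNA higher by 2.28 and 1.61 with footprints that were not called (0.35 and -0.31), and translational efficiency differences of -1.94 ± 0.34 SE (adjusted p = 0.00709) and -1.93 ± 0.33 SE (adjusted p = 0.00594). Pabpc1 and Rpsa, of the TOP mRNAs, had RNA differences of -0.15 and 0.01 and translational efficiency differences of -1.68 (adjusted p = 0.00359) and -1.34 (adjusted p = 0.00235), and Fth1 had 0.11 and -1.75 (adjusted p = 0.0117). Mapk6, Mt2, Atn1, Wsb1, Clk4 and Chka kept their translational efficiency call in all 15 alternatives run, whereas Mt1, Nr2f2, Arc and Tma16 lost it with the 2 h groups fitted alone (adjusted p from 0.0512 to 0.0788). For Hspa1b the RNA gap was the wider one, at -3.25 against -1.81 in footprints (translational efficiency 1.40 ± 0.30 SE, adjusted p = 0.0184). That call was lost without KCl footprint replicate 2 (0.0592), RNA H2O2 replicate 2 (0.0915) or RNA KCl replicates 1 and 2 (0.0541 and 0.0671), and that of Fth1 without RNA KCl replicate 1 (0.0564). With the 2 h groups fitted alone Atf4, Fth1, Hspa1b, Pabpc1, Rpsa and Slc35a4 all missed the threshold (adjusted p from 0.0512 to 0.111).

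Many of the strongest stress genes differed in RNA as well. Sesn2, Trib3, Chac1, Slc7a11, Egr1, Lif and Btg2 had RNA differences of 4.07, 3.23, 4.09, 3.49, 2.99, 5.77 and 4.96. None of them was called in the translational efficiency test (adjusted p from 0.154 to 0.983). Fosb, with RNA higher by 3.27, was called lower in that test (-1.21 ± 0.26 SE, adjusted p = 0.0176). Of 25 immediate early genes 4 were called lower and 0 higher there, against 2.09% and 2.24% of all genes. Amd1 had an RNA difference of -1.22 and a translational efficiency difference of -1.76 ± 0.42 SE (adjusted p = 0.031). The calls of Fosb and Amd1 in this test were not followed under the alternatives. Among the integrated stress response list 14 of 19 members were called higher and 2 lower in RNA, against 26.5% and 23.8% of all genes, and 1 was called higher in translational efficiency. On the low side Slco4a1, Adm, Edn1, Id2 and ND6 had RNA differences of -2.77, -2.18, -2.01, -2.40 and -2.30, with no call in translational efficiency (adjusted p from 0.494 to 1).

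Whether the difference between the stresses had the same size later was asked with the libraries at 7 h. At 7 h, 4376 genes were called between H2O2 and KCl (41.9%), 22.9% higher and 18.9% lower in H2O2. The difference itself changed between the times in 1769 of 10454 genes (16.9%), toward H2O2 in 1031 (9.86%) and toward KCl in 738 (7.06%). The count was 956 without H2O2 replicate 2 at 7 h, 1032 without KCl replicate 1 at 7 h, 1075 without H2O2 replicate 1 at 7 h and 1163 without KCl replicate 2 at 2 h. Of the genes called higher at 2 h, 151 were called higher at 7 h as well and 7 lower, and of those called lower, 154 were lower and 14 higher. Cdkn1a, at 71.5 and 86.1 CPM in H2O2 after 2 h, reached 830 and 1174 CPM after 7 h, while KCl went to 11.6 and 8.45 CPM (log2 difference 6.66 at 7 h). Pltp, a phospholipid transfer protein, had no call at 2 h (0.10, adjusted p = 0.842), with 43.0 and 40.5 CPM in H2O2 and 36.3 and 41.4 in KCl. At 7 h it had 747 and 690 CPM in H2O2 and 31.7 and 26.2 in KCl. Slc1a3, a glutamate carrier, had 38.4 and 40.9 CPM in H2O2 and 91.3 and 67.2 in KCl at 2 h, and 7.73 and 7.76 against 367 and 320 at 7 h. Its 2 h call (-0.99, adjusted p = 0.0223) was lost without H2O2 replicate 1 (0.0594), H2O2 replicate 2 (0.0568) or KCl replicate 1 (0.157). Hspa4l went from a log2 difference of -0.75 to -4.40. Sesn2 was at 3.43 and 3.34 at the earlier and later time. Mapk6 and Slc35a4 had smaller differences later, at 1.48 and 0.29.

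**Figure D4:**
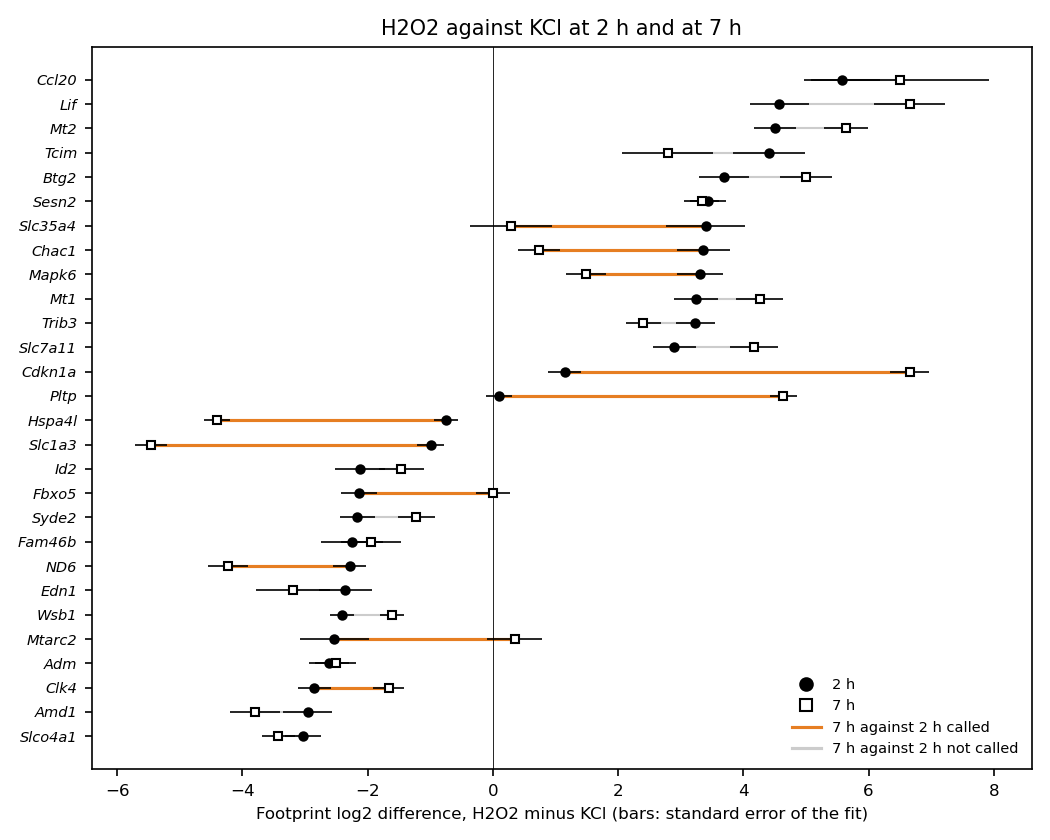
Footprint log2 difference, H2O2 minus KCl, at 2 h (filled circles) and 7 h (open squares) with standard errors of the fit. Orange lines join genes whose difference changed between the times by the test of the difference itself, and grey lines join the others. Cdkn1a and Pltp lie far to the right at 7 h, Slc1a3 and Hspa4l far to the left, and Fbxo5 lies at 0.00 at 7 h.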

How the data were processed

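Footprints and polyadenylated RNA of NIH3T3 cells were sequenced by the submitters, and the submitters' processing notes name Bowtie, STAR, RSEM and the mouse build mm10, without versions or the step each served. The authors deposited estimated counts (RSEM expected counts) per gene symbol, which were whole numbers and were not rounded further, and TPM values for the same libraries, also deposited by the authors, which were used only as an alternative. Whether counting used strand, and which part of the transcript footprints were counted over, was not stated in these sources, so overlapping and antisense genes cannot be told apart. Of the deposited columns, 18 had names that fit none of the labelled samples and were left aside. Of 19941 footprint symbols 19900 matched a RefSeq gene table of GRCm38.p6, used for names, and the promoter sequences came from RefSeq for the same assembly.

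The main test was edgeR 4.0.16 (R 4.3.3), quasi-likelihood F, with TMM normalization and filterByExpr on the 8 footprint libraries of H2O2 and KCl at 2 h and 7 h, contrast H2O2 minus KCl at 2 h, adjusted over all 10454 genes tested at 0.05. This assumes that the 2 h groups vary like the 7 h groups. For H2O2 the median absolute log2 difference between replicates was 0.368 at 2 h and 0.226 at 7 h. For KCl it was 0.287 and 0.271. The shared estimate of the spread may thus be too small for the H2O2 group at 2 h. CPM values other than the marker sums use the same normalization, and levels in CPM are not comparable between genes of different length. The SE is that of the fitted log2 difference. RNA was fitted in the same way, translational efficiency as the interaction of assay and stress over 16 libraries, and the change between times as the difference of 2 contrasts. Alternatives used DESeq2 1.42.0 and limma 3.58.1, other gene filters and normalizations, thinning of the 4 libraries to 1460751 counts, and libraries left out in turn. Left-out fits assume that a lone library varies like the other groups.

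On simulated counts with 200 changed genes, the footprint test (10172 genes in the step) recovered 41% of 2-fold and 88% of 4-fold changes with a false share of 8.51%. The RNA test (12750 genes) recovered 84% and 95% with 4.79% false, and the translational efficiency test (10383 genes, 199 changed) 30.3% and 86% with 12.8% false. Counts of a gene were drawn with the same spread in all groups of an assay. The wider spread of the H2O2 footprint libraries at 2 h was thus not simulated.

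Genes are named by rule: of called genes with a mean log2 CPM of at least 3 and groups that do not overlap, the 12 largest differences in each direction; up to 4 called members of each of 24 lists, smallest p first, or the 2 best covered where none was called; the 5 largest translational efficiency differences in each direction and the 4 smallest p of the test between times, both at a mean log2 CPM of at least 4. Other list members were added after their values were seen. One gene that this rule names is not reported here. The comparison, the lists and their members were chosen with earlier results of these data known. The lists were described by counts and medians, with no test of a list. The pattern that finds mitochondrial mRNAs was adapted to the symbols of the table.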

Additional observations from a re-analysis of the deposited data

Results flagged for a closer look

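The difference between H2O2 and KCl in footprints was not of the same size at the 2 times. The test of (H2O2 minus KCl at 7 h) minus (H2O2 minus KCl at 2 h) called 1769 of 10454 genes (16.9%). Among the genes named for their size at 2 h or for this test, 11 were called. Of these, Cdkn1a, Pltp, Slc1a3 and Hspa4l were named because this test called them. The 24 genes named for their size were picked on large 2 h differences, which enter this test. The 11 are thus a description and not separate evidence. The gap moved toward H2O2 by 5.51 on the log2 scale for Cdkn1a (p21), 4.54 for Pltp (phospholipid transfer), 2.15 for Fbxo5 (an inhibitor of the anaphase-promoting complex) and 1.19 for Clk4 (the splicing kinase). It moved the other way for Slc1a3 (glutamate carrier) at -4.47, Hspa4l (chaperone) at -3.65, Slc35a4 (uORF mRNA) at -3.11, Chac1 (glutathione breakdown) at -2.62, ND6 (mitochondrial complex I) at -1.94 and Mapk6 (ERK3) at -1.83. Mtarc2 was at 2.88, a value of 1 of the 2 rows that this gene has in the table.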

How the results depend on the processing

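No called value of a named gene changed sign under any alternative. The other called genes were not all followed in this way. Of the named genes without a footprint call, 6 changed sign with a library left out, with no call there either: their log2 differences with 1 library left out ran from -0.0736 to 0.87 for Arc, -0.23 to 0.25 for Col1a1, -0.78 to 0.25 for Hsp90b1, -0.0285 to 0.64 for Hspa5, -0.18 to 0.98 for Nr2f2 and -0.56 to 0.21 for Tuba1b. The medians of 5 lists (nuclear respiratory chain, endoplasmic reticulum chaperones, extracellular matrix, tubulins, SR proteins and CLK kinases) also took the other sign, in 7 values with a library left out. The 519 footprint calls became 223 with limma on log2(TPM + 1) and 202 on log2(TPM + 0.1), where 140 were higher and 62 lower, 150 without the filter on low counts, 156 (95 higher, 61 lower) with the 2 h groups alone, 289 after thinning, 240 with a quality weight per library, and 157 to 427 with 1 library left out. DESeq2 called 513 and left 811 adjusted p undefined. The 453 translational efficiency calls became 284 at an absolute log2 of at least 1, 23 with the 2 h groups alone, 187 with a weight per assay, and 128 to 990 with 1 library left out. The 6630 RNA calls became 1647 at an absolute log2 of at least 1 and 5278 to 6308 with 1 library left out, and the 1769 calls of the test between times 956 to 1942. With only the 2 h groups fewer samples estimate the spread, and the H2O2 footprint replicates differed more at 2 h than at 7 h. The cause of these changes was not tested. Of 72 called named genes, 38 kept their call with each library left out, 35 under every alternative, 65 after thinning and 49 with the 2 h groups alone. Of 216 list medians under alternatives 24 moved beyond their limit. The replicate numbers were not taken as a pairing: deviations of same-numbered H2O2 and KCl libraries at 2 h correlated at -0.28, and other pairs of groups at -0.12 to 0.24. With the replicate block 497 footprint, 545 translational efficiency, 6945 RNA and 1664 between-times calls were made. A crossed pairing, chosen after seeing the data, gave 982 footprint and 2403 between-times calls. At this depth 2-fold differences were often missed in simulation, so a gene without a call is not shown to be equal.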
